A study of Mus musculus with 15 samples.

Results

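ABC transporters are membrane pumps and related proteins built around a shared ATP-binding cassette, and they are grouped by sequence into subfamilies lettered A to G. The probes described here were those of the deposited table whose only gene symbol in the platform annotation begins Abca to Abcg followed by a digit. These were 40 probes of 36 genes, out of 17195 probes that are not control spots. Of these, 34 probes of 31 genes had at least 3 values in every group and were tested, out of 13978 tested probes in all. Subfamily A held 11 probes of 9 genes, B 8 probes of 8 genes, C 8 probes of 6, D 3 of 3, E 1 of 1, F 3 of 3 and G 6 of 6. ABC proteins that carry other symbols, such as Tap1, Tap2 and Cftr, fall outside the rule.

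Members of subfamilies A and G move cholesterol, phospholipid and other lipids out of cells or into organelles. Alveolar macrophages, the phagocytes that take up and break down surfactant in the air spaces of the lung, are known to depend on Abca1 and Abcg1 to export the sterol they take in. Subfamilies B and C hold drug pumps, exporters of conjugated compounds and mitochondrial transporters, and subfamily D works in peroxisomes and lysosomes. The proteins of subfamilies E and F have no membrane-spanning part and act on ribosomes.

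RNA of mouse alveolar macrophages was measured on 15 2-colour oligonucleotide arrays, each setting 1 sample against a reference RNA labelled as one of macrophages. The 3 groups had 5 arrays each. Wild type (b6+/+Dox) was compared with mice lacking the integrin beta6 subunit (b6-/-Dox, here beta6 null). The last group was beta6 null mice with added TGFb1 (b6-/-TGFb+/+Dox, here the TGFb1 group). All 3 groups had received doxycycline. Integrin alphavbeta6 of the lung epithelium activates latent TGFb, a growth factor that acts on macrophages. The labels do not name the promoter or the cells that express the TGFb1, nor the strain or age, and no wild type group with TGFb1 was analysed here. The title of the series speaks of cigarette smoking, which no sample label mentions.

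Every level below is a log2 ratio, taken as sample over reference, after the median of each array was set to 0. A level of 1 means a signal 2-fold above the reference relative to the middle probe of that array, so levels of different probes cannot be ranked against each other. The direction of the ratio is likely and not certain: the reference is the first channel, and Mmp12, which is known to rise in macrophages of beta6 null mice, was higher in that group by 4.31 (SE 0.42). Were the ratio inverted, every sign would turn. The base of the logarithm is not stated either, and base 2 was taken. A difference is the first named group minus the second, and a call is a limma p under 0.05 after Benjamini-Hochberg adjustment over all 13978 probes. The figure after ± beside a group mean is the SD over its arrays, which is the spread of single arrays.

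Arrays held 11590 to 16457 values, with SDs from 0.841 to 2.01, and the widest values and most missing spots were on wild type replicate 2 and beta6 null replicate 1. Of the member probes 37.5% had a value on all 15 arrays, against 38.6% of all probes. The labels leave it unsaid whether each array is a separate animal, so the spread behind each p-value is that between samples and may be technical. The alveolar macrophage markers differed between groups themselves. Of 19 probes tested, 4 were called lower in beta6 null than in wild type (Olr1, Fabp1, Plet1 and Cidec). Also 4 were called higher with TGFb1 than in beta6 null (Olr1, Fabp1, Plet1 and Pparg). In these 2 comparisons 0.973% and 0.751% of all probes were called. Itgb6, the disrupted gene, is an epithelial gene, and no source says whether its 2 probes read the part that was deleted, so they check no label. The 1 tested Itgb6 probe had no call. The Tgfb1 probe differed by -0.0049 (SE 0.95) with TGFb1 against beta6 null and had no call. No label says whether it reads the added TGFb1.

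Abcb1a, a P-glycoprotein that pumps drugs and other fat-soluble compounds out of cells, was the ABC transporter that was called. In beta6 null macrophages it was 4.78-fold above wild type (difference 2.26, SE 0.48, limma adjusted p = 0.0414). That call held in 8 of 27 alternative settings of the fit. In both comparisons of the TGFb1 group no ABC transporter was called. Among the sterol exporters, Abcg1 had a level 0.99 lower in beta6 null than in wild type (SE 0.32) and Abca1 had a level 0.76 higher with TGFb1 than in beta6 null (SE 0.33). Neither passed the adjustment over all probes.

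Across the family the groups had near-equal medians. In beta6 null against wild type 17 of the 34 members had a difference above 0 and 17 below, with a median of 0.02, against -0.05 over all probes. The 1 call among 34 is 2.94%, where 0.973% of all probes were called (136, of which 52 were higher and 84 lower). At an unadjusted p under 0.05 stood 4 members or 11.8% (Abca2, Abca7, Abcb1a and Abcg1), against 11.5% of all probes. The arrays of both groups did not overlap for 3 members or 8.82% (Abca2 lower, Abcb1a and the second Abcc5 probe higher), against 5.18% of all probes. The members as a family therefore stood near the background in the count at p under 0.05, and the other counts rest on 1 and 3 probes.

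Between the TGFb1 group and beta6 null, 0 members were called in limma, against 0.751% of all probes (105). Unadjusted, 5 members or 14.7% had p under 0.05 (Abca1, Abca7, Abcb1a, the first Abcc5 probe and Abcg1), against 15.2% of all probes. For 3 members or 8.82% the arrays did not overlap (Abca1 and the first Abcc5 probe higher, Abcb1a lower), against 8.44%. The median difference was -0.06 over members and 0.12 over all probes. Both of these comparisons use the same beta6 null arrays, so an opposite sign in them is not independent.

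Between the TGFb1 group and wild type, 0 members and 0% of all probes were called. At p under 0.05 stood 2 members or 5.88% (Abca1 and the first Abcc5 probe), against 6.29% of all probes, and 0 members had arrays that did not overlap, against 2.91%. The median difference over members was -0.0036, and 0.07 over all probes.

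**Figure D1:**
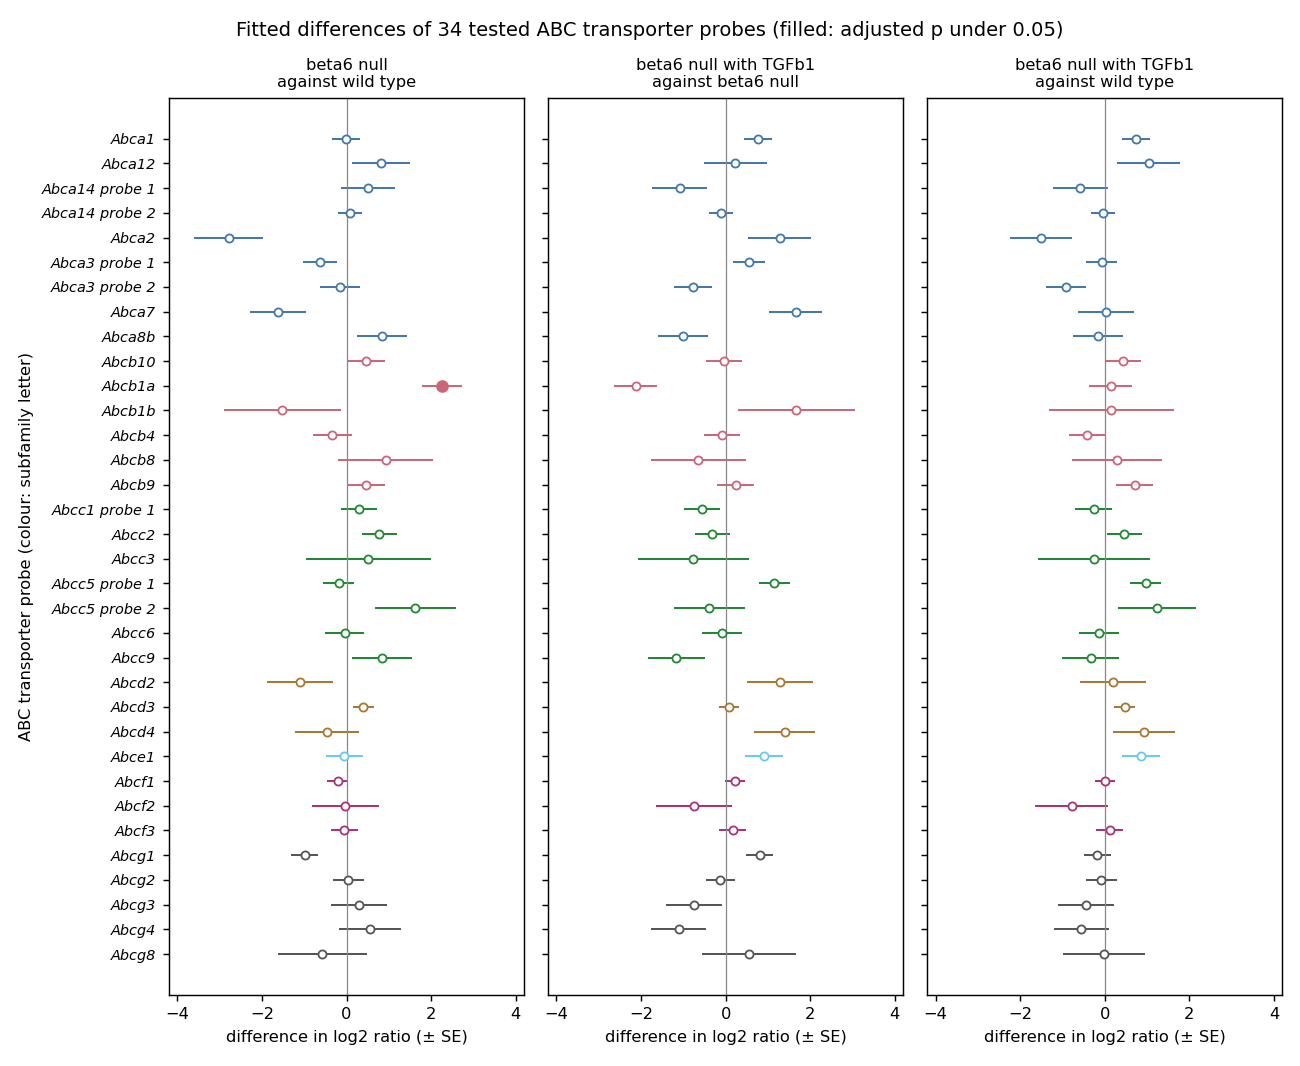
Fitted differences in log2 ratio (horizontal axis, bars are ± SE) of the 34 tested ABC transporter probes in the 3 comparisons, coloured by subfamily letter. Filled points are calls, and the only one is Abcb1a in beta6 null against wild type, at 2.26.

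By subfamily letter, the median difference in beta6 null against wild type was -0.02 over 9 probes of subfamily A, 0.47 over 6 of B, 0.51 over 7 of C, -0.46 over 3 of D, -0.05 for the 1 probe of E, -0.05 over 3 of F and 0.05 over 5 of G. With TGFb1 against beta6 null the medians were 0.23 in A, -0.06 in B, -0.39 in C, 1.28 in D, 0.91 in E, 0.17 in F and -0.12 in G. The 3 D members all had positive differences there, from 0.08 to 1.39, with no p under 0.05, but 2 of 3 were positive after quantile normalization and after each array was scaled to equal spread. Subfamily C had 6 of 7 probes below 0, and 5 of 7 under both of these scalings. Under both, the medians of D, E and F in beta6 null against wild type turned positive, to 0.23, 0.14 and 0.05 by quantile normalization, while those of A, B, C and G kept their sign. The sizes moved too: with quantile normalization and equal spread, B was 0.22 and 0.22 and C 0.19 and 0.16 in beta6 null against wild type, and D was 0.56 and 0.65 with TGFb1 against beta6 null. The medians rest on 1 to 9 probes each and were not tested.

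**Figure D2:**
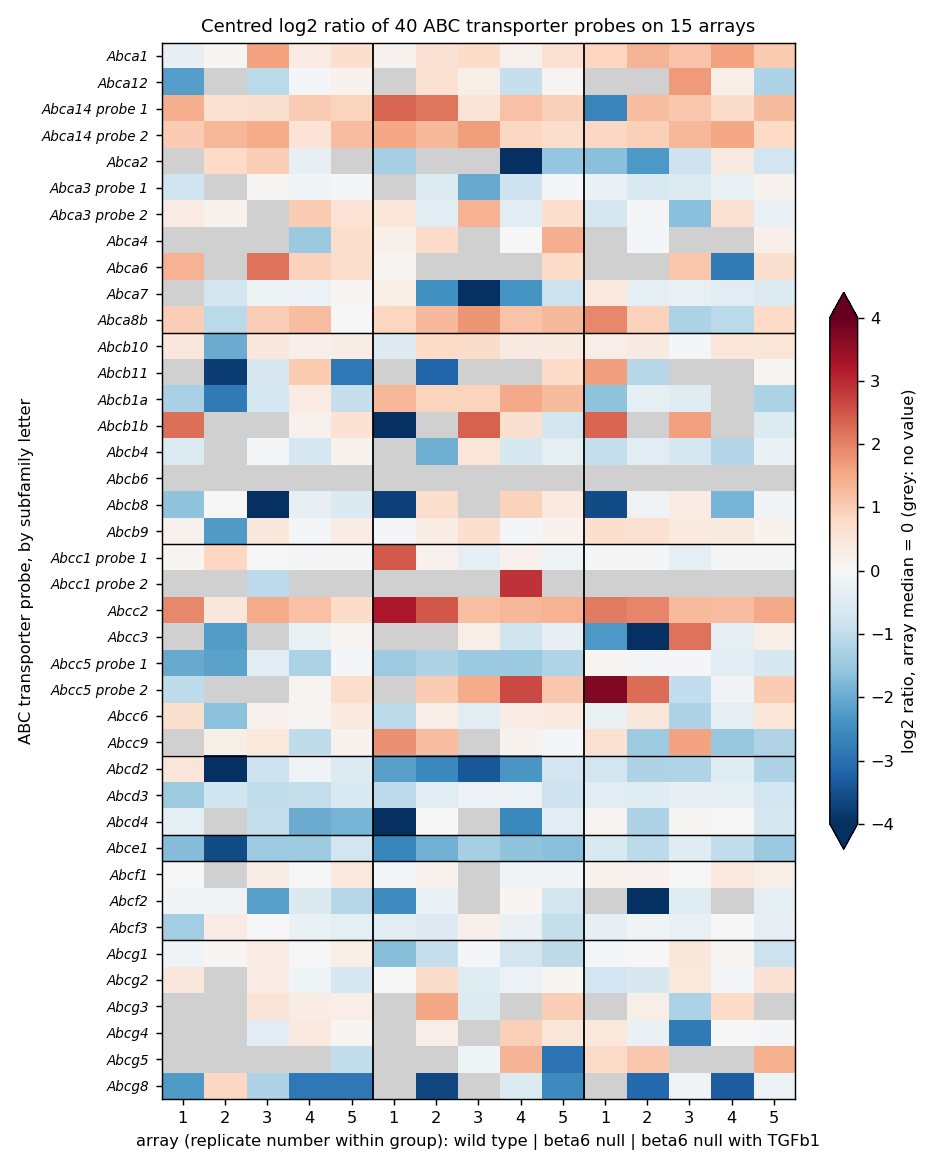
Centred log2 ratio of each of the 40 ABC transporter probes (rows, ordered by subfamily letter) on each of the 15 arrays (columns, by group and replicate number). Grey cells have no value, and colours stop at 4 and -4. The row of Abcb1a is red on all 5 beta6 null arrays, while Abcb6 has no value on any array.

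Abcb1a and its neighbour Abcb1b encode the rodent P-glycoproteins, and the next gene, Abcb4, encodes the pump that puts phosphatidylcholine into bile; the 3 genes follow each other on chromosome 5. The log2 ratio of Abcb1a on the wild type arrays, replicates 1 to 5, was -1.30, -2.84, -0.70, 0.34 and -0.91. On the beta6 null arrays it was 1.31, 0.89, 0.90, 1.51 and 1.27. With TGFb1 it was -1.61, -0.38, -0.50 and -1.28, and replicate 4 had no value. Every beta6 null array thus lay above every array of both other groups, whose ranges overlapped. The beta6 null mean was 1.18 ± 0.27 (SD, n = 5), that of wild type -1.08 ± 1.16 (n = 5) and that of the TGFb1 group -0.94 ± 0.60 (n = 4).

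The difference of Abcb1a in beta6 null against wild type was 2.26 (SE 0.48, limma adjusted p = 0.0414), higher in 5 of 5 beta6 null arrays. The exact two-sided permutation test over these arrays gave p = 0.00794, the smallest that 5 against 5 can give, and 0.0655 after adjustment over the 33 tests of the 11 probes described in full. Most of these probes were taken for a small p in the same comparisons, so neither the exact p-values nor their adjustment over 33 tests, here and below, cover that choice. For the TGFb1 group against beta6 null the difference was -2.12 (SE 0.51, limma adjusted p = 0.0706), lower on all 4 arrays with a value, again with an exact permutation p of 0.00794 and 0.0655 adjusted. Against wild type the TGFb1 group differed by 0.14 (SE 0.51), a sign that turned under 7 of 27 alternatives. The adjusted p in beta6 null against wild type lay close to the threshold. The call held in 8 of 27 alternatives, and of the 15 fits that left out 1 array it held in the 3 without wild type replicate 2, wild type replicate 4 or TGFb1 replicate 4. The size ran from 1.78 to 2.61 and the sign was kept in all 27.

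**Figure D3:**
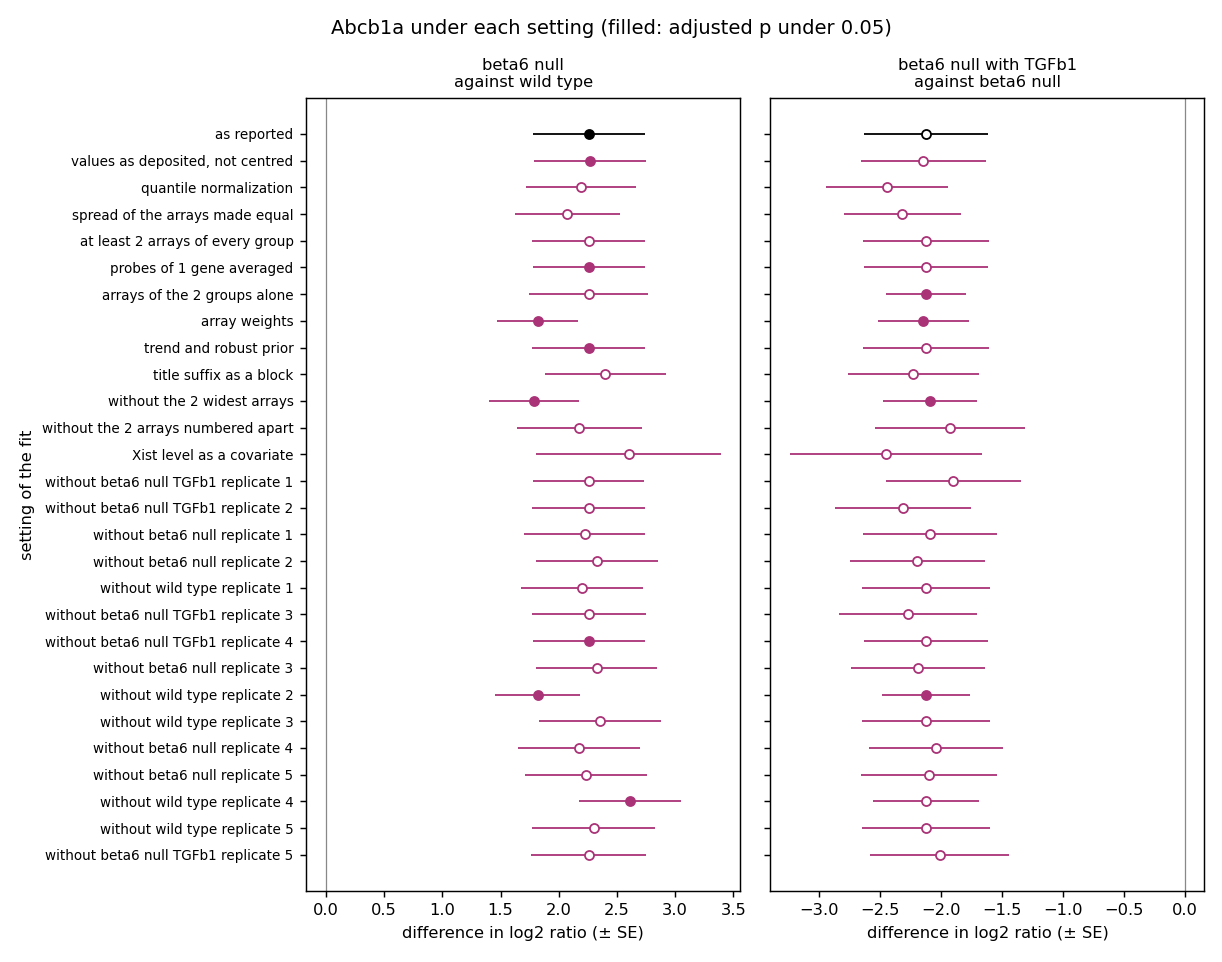
Difference in log2 ratio of Abcb1a (points, bars are ± SE) as reported and under each alternative setting, in beta6 null against wild type (left) and in the TGFb1 group against beta6 null (right). Filled points are calls. All points on the left lie between 1.78 and 2.61 and all on the right between -2.45 and -1.90.

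The array means of some cell type marker lists also differed between these groups. Over the 6 B cell probes the mean level of an array ran from 0.19 to 1.83 in beta6 null, from -1.53 to 0.24 in wild type and from -2.16 to -0.11 with TGFb1. Over the 10 probes of dendritic cells and monocytes it ran from 0.45 to 1.86 in beta6 null, from -0.94 to 0.30 in wild type and from -0.24 to 0.69 with TGFb1. For this second list every beta6 null array lay above every wild type array, while for B cells these ranges overlapped. Over the 13 probes of alveolar type 2 and club cells it ran from -0.65 to -0.07 in beta6 null. In wild type it ran from -1.77 to -0.64, and these 2 ranges overlapped. With TGFb1 it ran from -1.22 to -0.61. Over the 19 alveolar macrophage probes it ran from -1.76 to -1.45 in beta6 null, from -1.23 to -0.54 in wild type and from -0.96 to -0.43 with TGFb1. For ciliated cells, endothelium and fibroblasts, neutrophils, and T and NK cells the beta6 null and wild type ranges overlapped. A ratio to a reference does not show which markers were near 0 in the cells. Each array mean was taken over the probes with a value on that array, so missing spots enter it as well. Of the 6 B cell probes 4, and of the 10 dendritic cell and monocyte probes 8, had at least 3 values in every group. The part of missing spots in these ranges was not tested. In bulk RNA, more cells of a type and more RNA per cell cannot be told apart. The part of these markers in the level of Abcb1a was not tested.

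Of all marker lists, in beta6 null against wild type 1 of 12 probes of alveolar type 2 and club cells was called higher (Sftpc) and 1 lower (Epcam), and 1 of 7 neutrophil probes was called higher (S100a8). No call was made among 3 probes of ciliated cells, 6 of endothelium and fibroblasts, 8 of T and NK cells, 4 of B cells, 1 of erythroid cells and 8 of dendritic cells and monocytes, although 1, 0, 2, 2, 1 and 4 of them had an unadjusted p under 0.05, where 11.5% of all probes did. Of these lists, the 4 of 8 dendritic cell and monocyte probes and the 2 of 4 B cell probes lay farthest above that share among lists with more than 1 probe. With TGFb1 against beta6 null, Epcam was called higher and the dendritic cell marker Itgae lower, where 0.751% of all probes were called. The female-specific Xist RNA also differed, at -1.45, 0.22, 0.79, -2.46 and 0.88 on the 5 beta6 null arrays against -4.14 to -2.37 in wild type and -3.48 to -2.27 with TGFb1. The first probe of the Y-linked Eif2s3y stood at -1.23, -3.75, -4.44, -0.99 and -2.72 on the beta6 null arrays. It ran from -0.87 to -0.17 in wild type and from -1.06 to -0.36 with TGFb1. In beta6 null against wild type this probe differed by -2.11 (SE 0.55) and the second Eif2s3y probe by 0.76 (SE 1.19). The group labels do not give the sex of the animals. With the Xist level as a covariate the Abcb1a difference in beta6 null against wild type was 2.599 (SE 0.79, limma adjusted p = 0.471), and 0 of all 13978 probes were called in any comparison. Xist itself differed by 2.69 (SE 0.59) in beta6 null against wild type, so this fit cannot separate its level from the group.

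The promoter of Abcb1a is shown as that of the 1 called member, with that of its neighbour, the other P-glycoprotein gene. Each line gives the 250 bases before the transcription start in RefSeq (GRCm38.p6), 5′ to 3′ on the plus strand, Abcb1a at chr5:8566841-8567090 and Abcb1b at chr5:8797897-8798146. Capitals mark matches to the GC box GGGCGG and to CCAAT on either strand.
Abcb1a: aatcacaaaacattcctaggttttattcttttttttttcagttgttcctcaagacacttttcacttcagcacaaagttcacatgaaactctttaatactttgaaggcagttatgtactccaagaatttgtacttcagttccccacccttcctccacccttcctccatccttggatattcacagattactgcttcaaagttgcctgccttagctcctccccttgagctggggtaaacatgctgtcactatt
Abcb1b: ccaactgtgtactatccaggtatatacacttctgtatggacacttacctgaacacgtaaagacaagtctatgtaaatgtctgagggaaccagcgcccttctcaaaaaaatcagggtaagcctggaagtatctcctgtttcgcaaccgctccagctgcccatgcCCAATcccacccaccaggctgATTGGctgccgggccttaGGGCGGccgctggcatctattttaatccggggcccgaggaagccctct
The Abcb1a window held neither motif, and the Abcb1b window held 3 matches. Of the 36 member genes, 27 had 32 promoters in the table, of which 16 or 50% held GGGCGG on either strand, against 32.7% of 32851 promoters, and 9 or 28.1% held CCAAT, against 33.8%. TGANTCA, the letters bound by AP-1, was in 0 member windows, against 6.75% of all, and CAGAC, found in SMAD sites, in 9 or 28.1%, against 42.2%. These 2 motifs do not overlap GGGCGG or CCAAT in their letters, and matches were not tested further.

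Abcb1b had values on 10 arrays. These were 2.22, 0.16 and 0.59 in wild type, -4.37, 2.34, 0.65 and -0.74 in beta6 null and 2.33, 1.63 and -0.53 with TGFb1. The 3 ranges overlapped, and the within-group SD of 1.96 was the highest of the tested members. Its difference in beta6 null against wild type was -1.52 (SE 1.39), opposite in sign to that of Abcb1a. For Abcb4 that difference was -0.33 (SE 0.45). With its SE of 1.39, Abcb1b cannot be said to have moved with or apart from its neighbours. Abcb4 lay below the 2.26 (SE 0.48) of Abcb1a by more than both SEs, though this gap was not tested.

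Of the other B members, Abcb8 and Abcb10 sit in the inner membrane of mitochondria, and their differences in beta6 null against wild type were 0.93 (SE 1.12) and 0.47 (SE 0.43). Abcb9, a peptide transporter of lysosomes, differed by 0.47 (SE 0.43). Abcb11, the bile salt pump of liver, had values on 9 arrays between -3.79 and 1.67 and was not tested. Abcb6, a porphyrin transporter, had no value on any array. Of 18 tested genes of mitochondrial haem and iron-sulphur synthesis none was called in any comparison. An unadjusted p under 0.05 was found for 3, 5 and 1 of them in the 3 comparisons, in the order above, where 11.5%, 15.2% and 6.29% of all probes had one.

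Abcg1, one of the main sterol exporters of macrophages, passes cholesterol to high-density lipoprotein. Its log2 ratio was -0.17, 0.08, 0.31, 0.03 and 0.24 in wild type, -1.70, -0.93, -0.04, -0.75 and -1.05 in beta6 null and -0.07, 0.00, 0.44, 0.07 and -0.86 with TGFb1. On 4 of 5 beta6 null arrays it lay below every wild type array, and replicate 3 lay within their range. The difference in beta6 null against wild type was -0.99 (SE 0.32, limma p = 0.00704, adjusted p = 0.209), with an exact permutation p of 0.0159 and 0.0748 adjusted over the 33 tests. The TGFb1 group stood above beta6 null by 0.81 (SE 0.32, limma adjusted p = 0.237), and its difference against wild type was -0.18 (SE 0.32). Its sign in beta6 null was kept in all 28 alternatives, and the call was made in 1, with array weights (limma adjusted p = 0.0359).

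Abca1 loads cholesterol and phospholipid onto apolipoprotein A-I. It had log2 ratios of -0.34, 0.07, 1.60, 0.34 and 0.66 in wild type, 0.15, 0.57, 0.74, 0.17 and 0.61 in beta6 null and 0.86, 1.37, 1.14, 1.60 and 1.06 with TGFb1. All TGFb1 arrays lay above all beta6 null arrays, while wild type replicate 3 lay among the TGFb1 arrays. The TGFb1 mean was 1.21 ± 0.29 (SD, n = 5), that of beta6 null 0.45 ± 0.27 (n = 5) and that of wild type 0.46 ± 0.73 (n = 5). The difference in the TGFb1 group against beta6 null was 0.76 (SE 0.33, limma adjusted p = 0.292), 1.69-fold, with an exact permutation p of 0.00794 and 0.0655 adjusted. Against wild type it was 0.74 (SE 0.33, limma adjusted p = 0.786). Beta6 null and wild type differed by -0.02 (SE 0.33), an interval that leaves room for a change of either sign.

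The promoter of Abca1 is shown because liver X receptors, the sterol sensors that raise Abca1 and Abcg1, bind direct repeats of AGGTCA with 4 bases between the half-sites. The line gives the 250 bases before its start in RefSeq (GRCm38.p6, minus strand, chr4:53159896-53160145), with the closest match to that repeat in capitals.
Abca1: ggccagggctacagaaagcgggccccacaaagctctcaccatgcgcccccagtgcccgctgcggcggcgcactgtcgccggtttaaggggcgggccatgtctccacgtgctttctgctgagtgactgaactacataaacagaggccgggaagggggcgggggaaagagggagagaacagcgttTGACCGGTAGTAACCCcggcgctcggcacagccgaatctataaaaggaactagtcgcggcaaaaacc
The match begins 67 bases before the start and has 3 mismatches over both half-sites. Abca1 was the 1 member promoter of 32 (3.12%) with a match of up to 3 mismatches on either strand, against 18.5% of all promoters, so such a match is common among genes at large. The table held no promoter of Abcg1.

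Other genes of the liver X receptor and sterol efflux pathway were given by a list of 30, of which 22 genes were tested at 23 probes. In beta6 null against wild type 0 were called higher and 1 lower, where 0.973% of all probes were called. Of the 23 probes 6 had an unadjusted p under 0.05 (11.5% of all probes did), and the median difference was -0.08. The called gene was Scarb1, the receptor that exchanges cholesterol with high-density lipoprotein (-1.18, SE 0.26, limma adjusted p = 0.0450). Mylip, a liver X receptor target that degrades the low-density lipoprotein receptor, had a difference of -1.33 (adjusted p = 0.136), and the stearoyl desaturase Scd1 one of 2.76 (adjusted p = 0.0640). Nr1h3, the receptor itself, and Srebf1, a further target, differed by -0.71 (SE 0.47) and 0.77 (SE 0.59). Between the TGFb1 group and beta6 null 0 of the list were called, 7 had an unadjusted p under 0.05 (15.2% of all probes did), and the difference of Scarb1 was 1.13 (adjusted p = 0.0582). Against wild type 0 were called and 2 had p under 0.05 (6.29% of all probes did).

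No G member, Abcg1 included, was called in the fit as reported. Abcg2, a pump of urate and drugs, differed by 0.05 in beta6 null against wild type (SE 0.37) and by -0.12 with TGFb1 against beta6 null (SE 0.35). The rodent gene Abcg3 differed by 0.29 (SE 0.66) and -0.75 (SE 0.66), and Abcg4, a sterol transporter of brain, by 0.56 (SE 0.73) and -1.11 (SE 0.65). Abcg5 and Abcg8, neighbours on chromosome 17, form the pump that returns plant sterols to the gut. Abcg8 differed by -0.57 (SE 1.06), and Abcg5 had values on 7 arrays between -2.94 and 1.43 and was not tested.

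**Figure D4:**
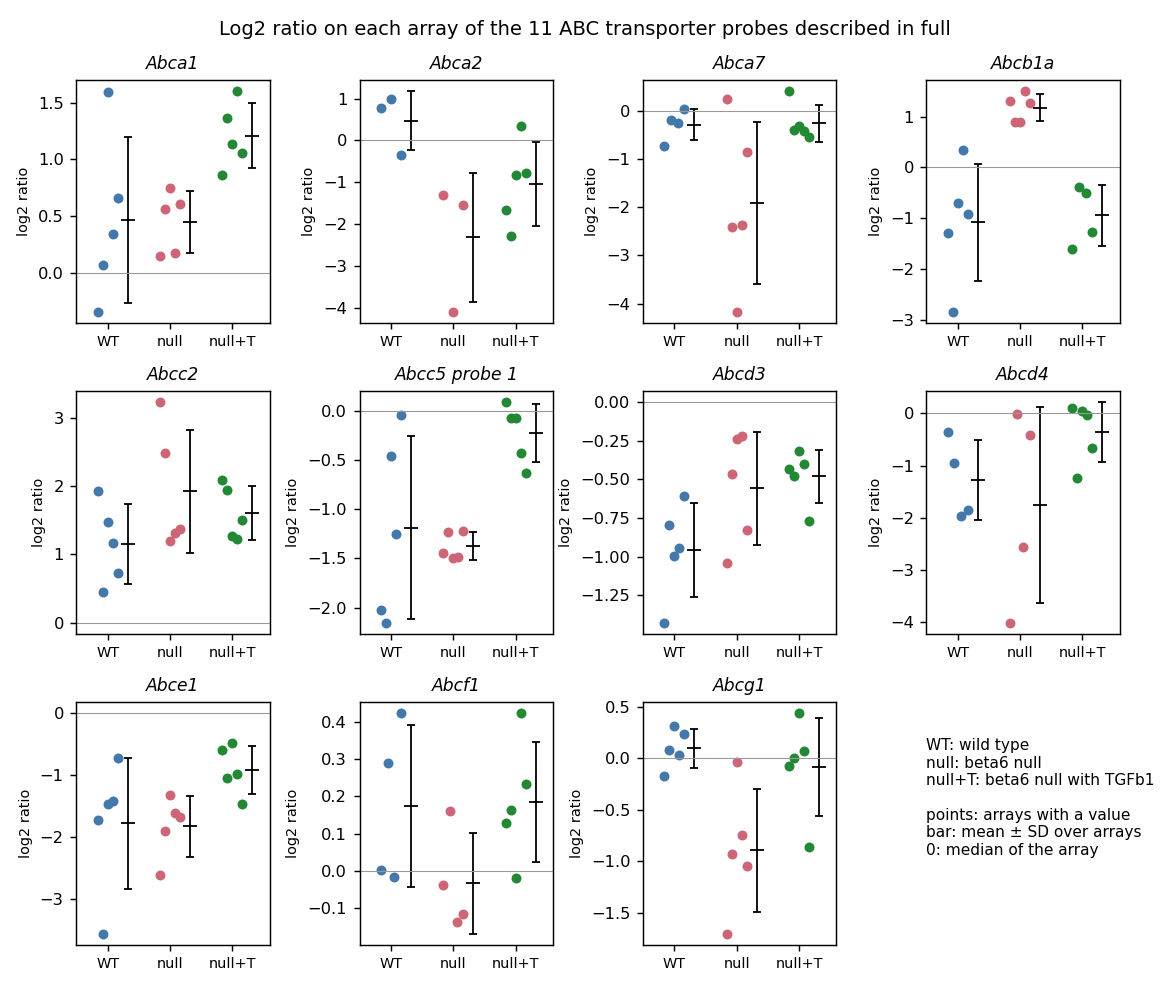
Centred log2 ratio (vertical axes, each with its own range) on every array with a value for the 11 ABC transporter probes described in full, in wild type (WT), beta6 null (null) and the TGFb1 group (null+T). Bars are means ± SD. Beta6 null points of Abcb1a lie apart from both other groups, and those of Abca2 and Abca7 spread over more than 2 log2 units.

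Among the other lipid transporters of subfamily A, Abca2 and Abca7 had the largest negative differences. Abca2 moves lipids in lysosomes and endosomes. It had log2 ratios of 0.79, 0.98 and -0.34 on 3 wild type arrays, -1.31, -4.09 and -1.53 on 3 beta6 null arrays and -1.66, -2.29, -0.82, 0.35 and -0.78 with TGFb1. The wild type and beta6 null arrays did not overlap, and the TGFb1 arrays overlapped both. The difference in beta6 null against wild type was -2.79 (SE 0.82, limma adjusted p = 0.197). The exact permutation p was 0.1, and 3 against 3 arrays cannot go lower in a two-sided test.

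Abca7 handles phospholipid and takes part in phagocytosis. It stood at -0.74, -0.19, -0.25 and 0.03 on 4 wild type arrays, at 0.24, -2.41, -4.16, -2.36 and -0.85 in beta6 null and at 0.42, -0.41, -0.31, -0.42 and -0.54 with TGFb1. On 4 of 5 beta6 null arrays it was below every array of the other groups, and replicate 1, 1 of the 2 widest arrays, was above all wild type arrays. The differences were -1.62 in beta6 null against wild type (SE 0.66, limma adjusted p = 0.352) and 1.66 with TGFb1 against beta6 null (SE 0.62, limma adjusted p = 0.220). The exact permutation p-values were 0.111 and 0.0873, and 0.204 and 0.200 adjusted. Without the 2 widest arrays, beta6 null replicate 1 among them, the second difference was 2.20 and was called (limma adjusted p = 0.0473). That was its 1 call in 27 alternatives.

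Abca3, which loads surfactant lipid into the lamellar bodies of alveolar type 2 cells, was read by 2 probes. Their differences with TGFb1 against beta6 null were 0.55 (SE 0.38) and -0.77 (SE 0.45), of opposite sign. In beta6 null against wild type they were -0.62 (SE 0.40) and -0.15 (SE 0.47). The 2 probes of Abca14 differed by 0.51 (SE 0.64) and 0.08 (SE 0.28) in beta6 null against wild type. Abca12, a lipid transporter of skin, and Abca8b differed by 0.81 (SE 0.69) and 0.84 (SE 0.59). Abca4, the retinoid transporter of photoreceptors, had values on 8 arrays between -1.49 and 1.45, and Abca6 on 9 arrays between -2.79 and 2.17, and neither was tested.

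Subfamily C exports conjugated compounds. Abcc5 carries cyclic nucleotides and conjugates, and its first probe stood at -2.03, -2.15, -0.46, -1.25 and -0.05 in wild type, -1.45, -1.23, -1.49, -1.49 and -1.22 in beta6 null and 0.09, -0.07, -0.08, -0.43 and -0.64 with TGFb1. All TGFb1 arrays lay above all beta6 null arrays, and wild type spanned most of the range of both. The difference with TGFb1 against beta6 null was 1.15 (SE 0.37, limma p = 0.00752, adjusted p = 0.159), with an exact permutation p of 0.00794 and 0.0655 adjusted. Against wild type it was 0.96 (SE 0.37, limma adjusted p = 0.786). The second probe of the gene gave -0.39 (SE 0.84) in the former comparison, of the opposite sign, and 1.63 (SE 0.96) in beta6 null against wild type, where the first gave -0.19 (SE 0.37). The 2 probes thus disagree in sign in both comparisons that involve beta6 null.

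Abcc2, which moves conjugates into bile, stood at 1.92, 0.45, 1.47, 1.17 and 0.73 in wild type, 3.24, 2.49, 1.20, 1.32 and 1.38 in beta6 null and 2.09, 1.95, 1.27, 1.23 and 1.51 with TGFb1. All 15 arrays were above 0 and the groups overlapped. The difference in beta6 null against wild type was 0.77 (SE 0.42, limma adjusted p = 0.493), with an exact permutation p of 0.151 and 0.262 adjusted. Abcc1, the exporter of leukotriene C4, differed by 0.29 (SE 0.44) at its tested probe, whose 14 arrays other than beta6 null replicate 1 (2.44) lay between -0.36 and 0.82. The other Abcc1 probe had values on 2 arrays. Abcc3 differed by 0.51 (SE 1.47), Abcc6 by -0.04 (SE 0.47) and Abcc9, the regulatory subunit of a potassium channel, by 0.84 (SE 0.71). Of 25 tested genes of glutathione conjugation, whose products some C members export, 0 were called in any comparison. Of their 26 probes 3, 4 and 4 had an unadjusted p under 0.05 in the 3 comparisons, where 11.5%, 15.2% and 6.29% of all probes did.

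In subfamily D, Abcd2 and Abcd3 bring fatty acids into peroxisomes and Abcd4 moves cobalamin out of lysosomes. Abcd3 stood at -1.43, -0.80, -0.99, -0.94 and -0.61 in wild type, -1.04, -0.47, -0.24, -0.22 and -0.83 in beta6 null and -0.44, -0.48, -0.32, -0.40 and -0.77 with TGFb1. Its TGFb1 arrays lay above the wild type arrays but for replicate 5, which lay between wild type replicates 2 and 5. The difference of the TGFb1 group against wild type was 0.47 (SE 0.25, limma adjusted p = 0.816), with an exact permutation p of 0.0159 and 0.0748 adjusted. The other 2 comparisons gave 0.39 (SE 0.25) and 0.08 (SE 0.25).

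Abcd4 stood at -0.36, -0.95, -1.97 and -1.85 in wild type, -4.02, -0.01, -2.56 and -0.41 in beta6 null and 0.10, -1.24, 0.04, -0.02 and -0.66 with TGFb1. The groups overlapped, and the beta6 null arrays ran over 4 log2 units. Its difference with TGFb1 against beta6 null was 1.39 (SE 0.72, limma adjusted p = 0.388), with an exact permutation p of 0.175 and 0.262 adjusted. Abcd2 differed by -1.09 in beta6 null against wild type (SE 0.78) and by 1.28 with TGFb1 against beta6 null (SE 0.78). Without wild type replicate 2, at -4.76, Abcd2 was called lower in beta6 null.

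Of 22 tested genes of peroxisomal fatty acid handling, 1 was called, the thiolase Acaa1a, in both comparisons that involve beta6 null. Beta6 null stood below wild type (-1.91, limma adjusted p = 0.00607) and below the TGFb1 group (1.40 as TGFb1 minus beta6 null, limma adjusted p = 0.04996). The other 21 were not called, and the median differences of the list were 0.0042 and 0.27.

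Abce1 splits ribosomes after translation ends. It stood at -1.73, -3.57, -1.46, -1.43 and -0.73 in wild type, -2.62, -1.91, -1.32, -1.62 and -1.69 in beta6 null and -0.60, -1.06, -0.49, -0.99 and -1.47 with TGFb1. On 4 of 5 TGFb1 arrays it was above every beta6 null array. The difference was 0.91 (SE 0.44, limma adjusted p = 0.350), with an exact permutation p of 0.0159 and 0.0748 adjusted. Against wild type it was 0.86 (SE 0.44), and beta6 null differed from wild type by -0.05 (SE 0.44), a sign that turned under 7 of 28 alternatives.

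The median within-group SD was 0.761 over tested members and 0.781 over all tested probes. Abcf1, which assists translation initiation, had the smallest of the tested members, 0.175. Its values were 0.00, 0.29, -0.02 and 0.42 in wild type, -0.04, 0.16, -0.14 and -0.12 in beta6 null and 0.13, 0.16, -0.02, 0.42 and 0.23 with TGFb1. The groups overlapped, with differences of -0.21 (SE 0.24), 0.22 (SE 0.23) and 0.01 (SE 0.23) in the 3 comparisons. Exact permutation p-values were 0.171, 0.0635 and 0.976, and 0.262, 0.200 and 0.976 adjusted. Abcf2 and Abcf3 differed by -0.03 (SE 0.79) and -0.05 (SE 0.32) in beta6 null against wild type.

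Among 12 tested genes of ribosome recycling and eIF2 regulation, Eif2ak4, the kinase that senses uncharged transfer RNA, was the 1 call. It was lower in beta6 null than in wild type (-2.71, limma adjusted p = 0.0406). With TGFb1 it was higher than in beta6 null (2.72, limma adjusted p = 0.0408). In these 2 comparisons 0.973% and 0.751% of all probes were called. At an unadjusted p under 0.05 stood 3, 3 and 0 of the 12 in the 3 comparisons. Of all probes 11.5%, 15.2% and 6.29% did. Of 17 tested genes of MHC class I peptide loading, the pathway of the ABC proteins Tap1 and Tap2, 0 were called in any comparison. Of their 18 probes 1, 5 and 2 had an unadjusted p under 0.05, where 11.5%, 15.2% and 6.29% of all probes did. None of these pathway lists had a call in the TGFb1 group against wild type.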

How the data were processed

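The authors deposited 1 log ratio per probe and array, taken here as log2. The dyes, background correction, normalization and log base are not given by any file header or label used here. Groups came from the channel 2 labels, and replicate numbers follow accession order and pair nothing. Symbols came from the platform annotation (17195 probes without the 30 control spots: 13972 with 1 symbol, 13 with several, 3210 with none). All 36 member genes were found by Entrez ID in RefSeq (GRCm38.p6), used for names and neighbours.

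Each array was centred on its median. In R 4.3.3, limma 3.58.1 (lmFit and eBayes) fitted 3 group means over the 15 arrays to 13978 probes with at least 3 values in every group, each probe by itself. Missing values were dropped, not imputed. Exact permutation tests were added for 11 probes. These were Abca1, Abcg1, Abcb1a, any member with an adjusted p under 0.05 or an unadjusted p under 0.01, and for each subfamily the member with the smallest p in beta6 null against wild type and in the TGFb1 group against beta6 null. The steps were tested on simulated data. Alternatives were 28 settings. The members, the companion and marker lists and the rules were chosen with earlier results of these data known, and the motifs other than the direct repeat were added later. The number of arrays limits the precision.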

Additional observations from a re-analysis of the deposited data

Results flagged for a closer look

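In the TGFb1 group, Abca7 on replicate 1 stood apart from the other arrays of its group, at 0.418 where the others lay between -0.54 and -0.31. It was the 1 array so marked by a gap test (Dixon's) in 31 groups of arrays of the probes described in full, and chance marks about 1 group in 20.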

How the results depend on the processing

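Of 36 single results (12 probes including Mmp12, 3 comparisons), 26 kept their sign in every alternative run and 10 reversed at least once, none of them called; the cause was not tested. The count of ABC transporters called in beta6 null against wild type, 1 as reported, was 0 with quantile normalization, equal array spread, at least 2 arrays of every group, the 2 groups alone, a block on the suffix of the sample titles, leaving out the 2 arrays whose title numbers lie apart, and the Xist covariate (chosen after seeing the data). It was 2 with array weights and 0 to 2 over the fits that left out 1 array. With values on all 15 arrays the count was also 0, but only 15 members were tested there. Abcb1a, with no value on TGFb1 replicate 4, was not among them and could not be called. With TGFb1 against beta6 null, 0 as reported, it was 1 with the 2 groups alone and with array weights, 2 without the 2 widest arrays and 0 to 1 leaving out 1 array. The median difference in the TGFb1 group against wild type moved to 0.189 over the 15 members with values on all 15 arrays, a smaller set of members. With the Xist covariate the median of members moved to -0.17 in beta6 null against wild type and 0.15 in the TGFb1 group against beta6 null. Over the fits that left out 1 array the medians spanned -0.031 to 0.197 for beta6 null against wild type, from -0.088 to 0.163 with TGFb1 against beta6 null and from -0.059 to 0.117 with TGFb1 against wild type.

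Reversed values in beta6 null against wild type were 0.0926 (suffix block) and 0.0525 (without arrays numbered apart) for Abca1, 0.0469 (suffix block) for the first Abcc5 probe, 0.23 (quantile), 0.42 (equal spread), 0.21 (weights) and 0.29 (without the widest) for Abcd4, and 0.14 (quantile), 0.0874 (equal spread) and 0.16 (suffix block) for Abce1. With probes of 1 gene averaged Abcc5 gave 0.67, which comes from both its probes and is no reversal of the first alone. With TGFb1 against beta6 null they were 0.026 (quantile), 0.41 (equal spread), 0.0249 (weights) and 0.0145 (without the widest) for Abcc2, and -0.18, -0.13 and -0.0427 (quantile, equal spread, without the widest) for Abcd3. Against wild type they were -0.15, -0.13, -0.22, -0.12 and -0.0379 (quantile, equal spread, weights, without the widest, Xist) for Abca7, -0.25, -0.24, -0.32 and -0.30 (the first 4 of these) for Abcb1a, -0.0028, -0.0199, -0.027 and -0.00025 (not centred, quantile, equal spread, without arrays numbered apart) for Abcf1 and 0.0126 (without arrays numbered apart) for Abcg1. Over the fits that left out 1 array, in beta6 null against wild type Abca1 ran from -0.218 to 0.267, the first Abcc5 probe from -0.426 to 0.0994, Abcd4 from -1.045 to 0.291 and Abce1 from -0.495 to 0.215. With TGFb1 against beta6 null Abcc2 ran from -0.496 to 0.0145 and Abcd3 from -0.0427 to 0.163. With TGFb1 against wild type Abca7 ran from -0.133 to 0.141, Abcb1a from -0.302 to 0.493, Abcf1 from -0.052 to 0.0947 and Abcg1 from -0.313 to 0.0126.

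Counts of all probes called in beta6 null against wild type, 136 as reported, went from 0 with the Xist covariate and 44 with the 2 groups alone to 436 with array weights, and the higher and lower calls, 52 and 84, were 43 and 39 with quantile normalization and 33 and 34 with equal array spread. With TGFb1 against beta6 null, 105 as reported became 16 with equal array spread, 21 with quantile normalization and 727 with array weights. No paired analysis was possible because replicate numbers were given in accession order. The depth limits are those of 3 to 5 arrays a group and of spots without a value.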
